A study of Homo sapiens with 6 samples.

Results

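The genes described here are the epidermal growth factor (EGF) family ligands AREG, EREG, TGFA, HBEGF and BTC, the receptors EGFR, ERBB2 and ERBB3, the sheddase ADAM17, and ERRFI1, an inhibitor of the receptor kinase. They were taken by name, 10 of the 60664 gene IDs in the count table, with earlier results of the same comparison in view. Their fold changes are therefore given as a description, without p-values. Where a member is said to be called or not, this gives its side of the threshold (adjusted p under 0.05). That too is a description and no independent test. All 10 had enough reads to be tested, as did 16102 genes in all. RNA was sequenced from HCT-8, an established human colorectal cancer cell line, grown in DMEM with 10% fetal bovine serum. The shPNISR group (3 libraries) came from cells transfected with a plasmid for a hairpin RNA against PNISR, which encodes a nuclear protein with serine- and arginine-rich stretches, and the shNC group (3 libraries) from cells transfected with the control plasmid shNC. Both groups thus share the line, the medium and a plasmid transfection. The series was set up to look for splicing controlled by PNISR; read counts per gene do not measure splicing. The labels do not say whether the 3 libraries of a group came from separate cultures, whether the cells were a pool or a clone, or how many hairpins were used, so any p-value reflects no more than the variation among these libraries, which may be technical.

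EGF family ligands are made as membrane-anchored precursors, and metalloproteases cut them free: ADAM17 releases AREG, EREG, TGFA and HBEGF, and ADAM10 releases BTC and EGF. A bound ligand lets EGFR pair with itself or with another ERBB receptor, and the kinase domains then phosphorylate the receptor tails, which feeds the RAS-ERK and PI3K-AKT pathways. ERBB2 has no known ligand, and ERBB3 has a weak kinase and binds neuregulins. ERRFI1 (also called MIG6) binds the EGFR kinase domain, blocks it, and is itself induced by receptor signalling. In colorectal cancer, AREG and EREG are known as the ligands whose tumour RNA level is studied in relation to the response to EGFR antibodies.

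The libraries held 15049485 to 17977803 counted reads. PNISR was lower in the knockdown, at 18.5, 20.7 and 27.6 CPM (counts relative to each library's total, scaled by TMM factors) in shPNISR libraries 1, 2 and 3, against 55.3, 50.2 and 62.8 CPM in shNC libraries 1, 2 and 3. Its log2 fold change was -1.33 ± 0.15 (SE); an antisense gene, AL513550.1, overlaps it. Library shNC 2 stood apart from the other controls: on the first principal component, which held 44.8% of the variance, shPNISR scored 24.1, 24.6 and 16.9, and shNC scored -35.2, 0.787 and -31.2. Calls among the members, the marker lists and the pathway lists are therefore also given without it. Since shNC 2 was picked from these values as the control nearest to shPNISR, leaving it out favours calls. Nothing is therefore read from a higher number of calls without it. Across all genes, 371 were called higher in shPNISR (2.30% of those tested) and 134 lower (0.832%) with edgeR's quasi-likelihood test (Benjamini-Hochberg adjusted p under 0.05); without shNC 2 the counts were 1284 higher (7.78%) and 746 lower (4.52%). Of the 11 colon epithelial markers, 9 were tested and 2 (KRT19 and CDH17) were called higher, and their summed level was 4901 to 6145 CPM in shPNISR and 4377 to 5007 CPM in shNC. EPCAM averaged 161 ± 21.0 CPM in shPNISR and 119 ± 24.2 CPM in shNC (SD, n = 3 each), but KRT20 and GPA33, markers of differentiated colon epithelium, did not exceed 0.434 and 0.331 CPM in any library. The summed levels of markers of cell types that a pure line should lack were 25.2 to 29.6 CPM in shPNISR and 16.9 to 25.5 CPM in shNC for 9 fibroblast genes, with COL1A2 and FAP at 0 reads in every library and 0 of 5 tested genes called. Most of the fibroblast sum came from the collagen gene COL1A1. It averaged 23.1 ± 2.68 CPM in shPNISR and 16.2 ± 3.60 CPM in shNC (SD, n = 3 each). For 7 leukocyte genes the sums were 5.45 to 6.88 CPM in shPNISR and 4.42 to 5.66 CPM in shNC, with PTPRC at 0 and LYZ called lower. The sums for 5 endothelial genes were 1.41 to 1.66 CPM in shPNISR and 0.718 to 1.49 CPM in shNC, with TEK at 0. Without shNC 2, where 12.3% of all genes were called, 3 colon epithelial genes were called higher (KRT19, CDH17 and LGALS4), 2 of the 5 tested fibroblast genes higher (COL1A1 and PDGFRB, with a list median log2 fold change of 0.54, against 0.21 with all libraries), and of the leukocyte genes CD14 higher and LYZ lower. The part of these markers in the results below was not tested.

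Among the ligands, AREG and EREG were called higher in shPNISR, and TGFA, HBEGF and BTC were not called. Thus 2 of the 10 members were called, where 3.14% of all genes tested were called in either direction. Because the members were picked with these results known, nothing is read from that difference. The groups did not overlap in any library for 4 members (AREG, EREG, TGFA and ERRFI1), all higher in shPNISR; of all genes tested, 21.1% had groups that did not overlap, 11.5% with shPNISR higher. The median log2 fold change was 0.30 over the 10 members and -0.01 over all genes tested. As the RNA is from bulk cultures, fewer cells of a kind and less RNA per cell cannot be told apart.

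AREG, which encodes amphiregulin, had the largest change of the 10 (ENSG00000109321, chr4:74445134-74455009, plus strand, GRCh38). It was read 978, 1245 and 1108 times in shPNISR, against 403, 546 and 367 times in shNC. Scaled, this gave 57.9, 77.2 and 67.9 CPM in shPNISR, against 22.2, 35.3 and 24.4 CPM in shNC. Every shPNISR library lay above every shNC library, and shNC 2 was the highest control. The means were 67.7 ± 9.65 CPM in shPNISR and 27.3 ± 7.02 CPM in shNC (SD, n = 3 each), a log2 fold change of 1.31 ± 0.16 (SE), or 2.48-fold. The shPNISR mean was 1.92 times the level in shNC 2 and 2.90 times the mean of shNC 1 and 3. AREG was called under all 16 alternative settings, with log2 fold changes of 1.18 to 1.53.

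EREG, which encodes epiregulin, lies close to AREG and changed less (ENSG00000124882, chr4:74365143-74388751, plus strand). It had 1547, 1370 and 1420 reads in shPNISR, against 1325, 785 and 955 reads in shNC. The levels were 91.6, 85.0 and 87.1 CPM in shPNISR, against 73.1, 50.8 and 63.6 CPM in shNC. The shPNISR libraries sat close together while the controls spread, and for this gene shNC 2 was the lowest control, not the highest. The means were 87.9 ± 3.39 CPM in shPNISR and 62.5 ± 11.2 CPM in shNC (SD, n = 3 each), a log2 fold change of 0.49 ± 0.13 (SE), or 1.40-fold. The call was lost in 6 of the 16 alternatives: with library totals in place of TMM factors, without the robust dispersion option, without shPNISR 1, 2 or 3, and without shNC 2, where the log2 fold change was 0.36.

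The 250 bases upstream of the start of each of these neighbouring genes are shown because both genes were called higher; 9 of the 10 members had an entry in the RefSeq promoter table (GRCh38.p14). AREG's stretch is chr4:74444886-74445135 and EREG's is chr4:74364895-74365144, both on the plus strand and written 5′ to 3′. Capitals mark matches, on either strand, to 5 short motifs searched in all promoters: the cyclic AMP response element TGACGTCA, the AP-1 site TGANTCA, the TATA box TATAAA, the TEAD site GGAATG and the ETS site CCGGAAG.
AREG: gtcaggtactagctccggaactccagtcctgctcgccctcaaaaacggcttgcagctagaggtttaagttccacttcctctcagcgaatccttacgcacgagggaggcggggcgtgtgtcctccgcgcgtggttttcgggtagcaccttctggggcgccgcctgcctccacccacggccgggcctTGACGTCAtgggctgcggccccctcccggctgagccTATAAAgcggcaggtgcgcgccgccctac
EREG: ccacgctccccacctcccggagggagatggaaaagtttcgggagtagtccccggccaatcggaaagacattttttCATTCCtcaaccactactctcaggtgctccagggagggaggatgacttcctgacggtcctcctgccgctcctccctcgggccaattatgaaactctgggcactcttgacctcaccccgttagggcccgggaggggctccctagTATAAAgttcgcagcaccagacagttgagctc
Both stretches hold a TATA box, 29 to 24 bases before the start in AREG and 32 to 27 bases before it in EREG. AREG's also holds the cyclic AMP response element, 65 to 58 bases before the start, and EREG's holds a TEAD site read on the minus strand (CATTCC as printed), 175 to 170 bases before the start. Of 35116 promoters of the same length, 10.7% hold TATAAA, 1.65% hold TGACGTCA, 11.9% hold GGAATG, 6.57% hold TGANTCA and 8.52% hold CCGGAAG, on either strand. Among the other members with an entry, ERBB2 holds an AP-1 site and 2 ETS sites and ADAM17 holds a TEAD and an ETS site. No match to these exact letters was found for TGFA, HBEGF, BTC, EGFR or ERRFI1. Variants of the motifs were not searched. Near its end, ERRFI1's stretch holds TATATATA and BTC's holds ATAAATA, which TATAAA misses. A TATA box is therefore not shown to be particular to AREG and EREG. Only the first entry listed for each member was searched, so a match or its absence holds for that start alone. For TGFA and ADAM17 the stretch searched lies inside the span given for the gene. For ERBB2 and BTC most of it does, and for HBEGF, AREG and EREG a smaller part at its end. A match is a description of the letters only.

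TGFA, the gene of transforming growth factor alpha, was higher in every shPNISR library but was not called (ENSG00000163235, chr2:70447280-70554193, minus strand). Its levels were 27.5, 28.6 and 27.0 CPM in shPNISR, against 22.4, 19.5 and 21.8 CPM in shNC. The groups did not overlap, and both were tight, at 27.7 ± 0.824 CPM in shPNISR and 21.2 ± 1.53 CPM in shNC (SD, n = 3 each). The log2 fold change was 0.38 ± 0.13 (SE), between 0.32 and 0.42 over the 16 alternatives, and none of them called it.

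HBEGF, the heparin-binding ligand that is also known as the diphtheria toxin receptor, overlapped between groups (ENSG00000113070, chr5:140332843-140346631, minus strand). It was at 6.22, 8.06 and 6.62 CPM in shPNISR, against 4.80, 7.44 and 5.33 CPM in shNC, with shNC 2 the highest control. Its log2 fold change was 0.25 ± 0.21 (SE).
BTC, the gene of betacellulin, was the least read member (ENSG00000174808, chr4:74744759-74794686, minus strand), with 32, 35 and 37 reads in shPNISR, against 26, 16 and 38 reads in shNC. These are 1.89, 2.17 and 2.27 CPM in shPNISR, against 1.44, 1.04 and 2.53 CPM in shNC, so the highest library of all was a control. The log2 fold change was 0.35 ± 0.33 (SE), and at this depth it ran between 0.11 and 0.76 over the alternatives. All 5 ligands had a fitted value above 0, but only AREG and EREG were called, and the differences of the other 3 were not past the threshold under any of the 16 alternatives.

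**Figure D1:**
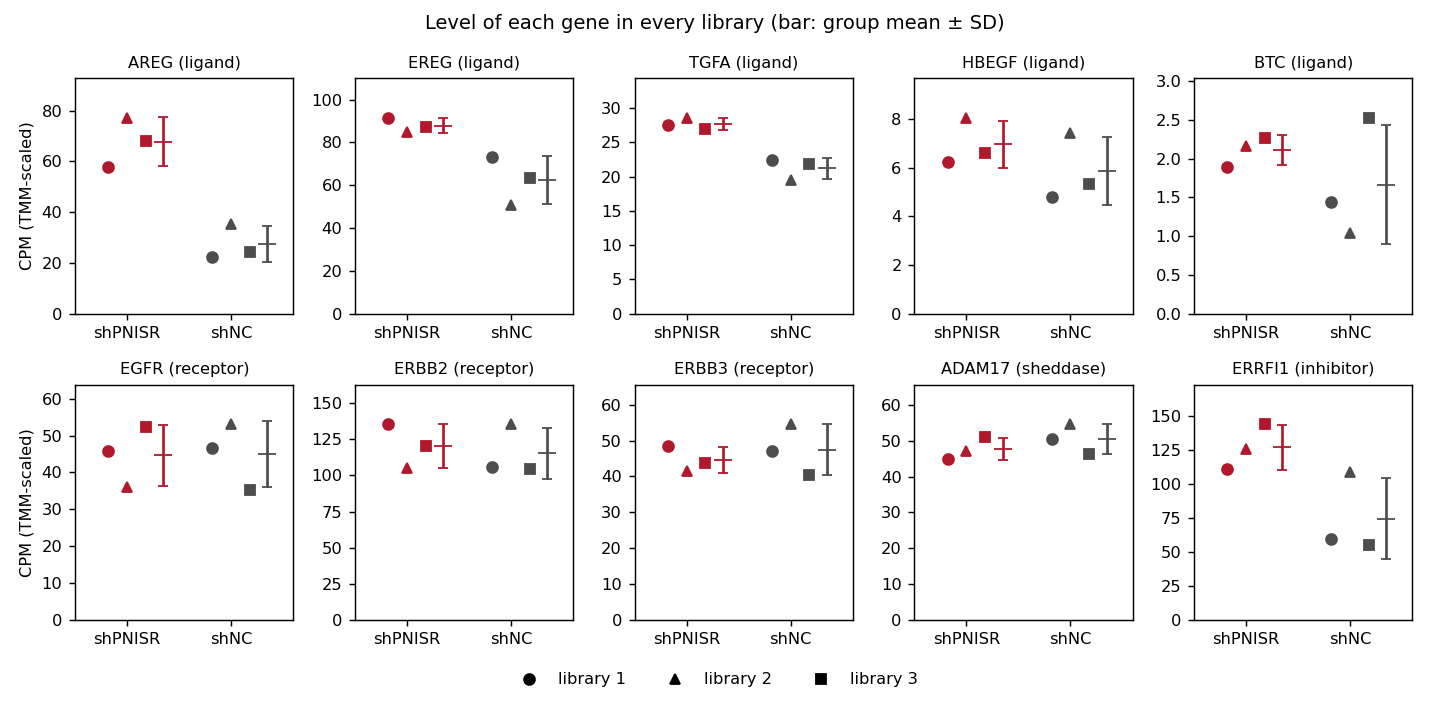
Level of each of the 10 genes in CPM (TMM-scaled, linear axis from 0) in the 3 shPNISR libraries and the 3 shNC libraries; points are libraries and bars the group mean ± SD. AREG, EREG, TGFA and ERRFI1 show no overlap between groups, while the 3 receptors and ADAM17 do overlap.

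Levels of different genes were compared per kilobase of exon, using the union of annotated exons, so that they depend on which isoforms are annotated. Summed over the 5 ligands, the level was 59.4, 70.9 and 64.9 CPM per kb in shPNISR, against 32.9, 37.1 and 33.0 CPM per kb in shNC. The sum did not overlap between groups, with means of 65.1 ± 5.74 CPM per kb in shPNISR and 34.3 ± 2.39 CPM per kb in shNC (SD, n = 3 each). AREG supplied 59.1%, 66.1% and 63.5% of that sum in shPNISR, against 41.0%, 57.8% and 44.9% in shNC. Its share was thus highest in the knockdown, and the control nearest to it was again shNC 2. The shares of EREG were 27.0%, 21.0% and 23.5% in shPNISR, against 38.9%, 24.0% and 33.7% in shNC, which overlap because of shNC 2. TGFA's share was 8.61% ± 0.628 in shPNISR and 12.5% ± 1.70 in shNC, HBEGF's 3.54% ± 0.203 in shPNISR and 5.61% ± 0.935 in shNC, and BTC's 1.15% ± 0.0795 in shPNISR and 1.75% ± 0.883 in shNC (SD, n = 3 each). Read against each other without lengths, AREG had 0.632, 0.909 and 0.780 reads per EREG read in shPNISR, against 0.304, 0.696 and 0.384 in shNC. This ratio overlaps between groups: shNC 2 lies above shPNISR 1.

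**Figure D2:**
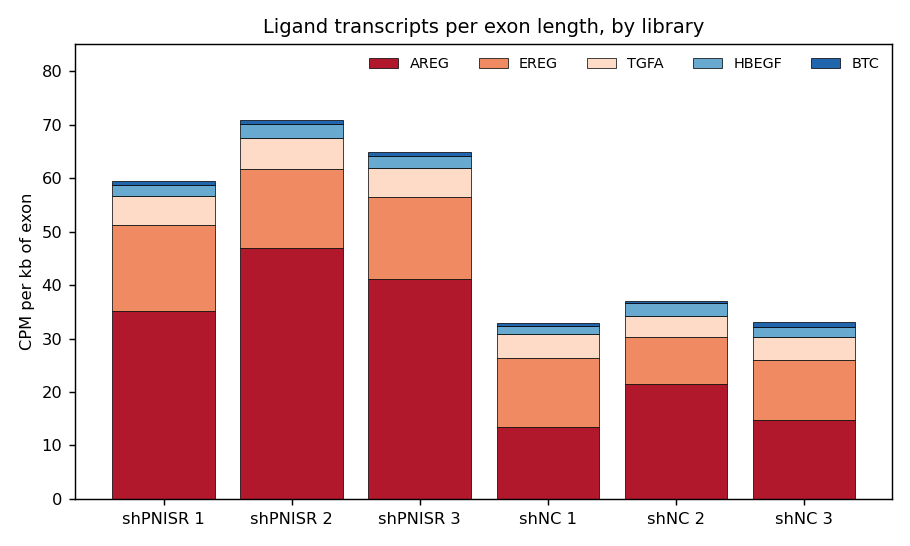
Stacked bars of the 5 ligands in each library, in CPM per kb of exon, from shPNISR 1 to 3 on the left to shNC 1 to 3 on the right. The sum lies between 59.4 and 70.9 in shPNISR and between 32.9 and 37.1 in shNC, and AREG makes most of the difference in height.

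The 3 receptors and the sheddase were not called in either direction (0 of 4 by edgeR's quasi-likelihood test, by DESeq2 and by limma voom, and 0 at an unadjusted p under 0.05, which 17.8% of all genes tested passed). EGFR (ENSG00000146648, chr7:55019021-55211628, plus strand) was at 45.8, 36.0 and 52.4 CPM in shPNISR, against 46.6, 53.2 and 35.4 CPM in shNC. The libraries of both groups were interleaved, and the log2 fold change was -0.01 ± 0.16 (SE). ERBB2, the ligandless partner receptor (ENSG00000141736, chr17:39687914-39730426, plus strand), was at 135, 105 and 120.4 CPM in shPNISR, against 106, 136 and 105 CPM in shNC. Its log2 fold change was 0.06 ± 0.13 (SE); PGAP3 and MIEN1 overlap it on the other strand, and the counting is not known to use strand. ERBB2 had 2.96, 2.92 and 2.30 reads per EGFR read in shPNISR, against 2.27, 2.55 and 2.96 in shNC, the same range in both groups.

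ERBB3, the neuregulin receptor (ENSG00000065361, chr12:56076799-56103505, plus strand), was at 48.6, 41.5 and 43.8 CPM in shPNISR, against 47.1, 54.7 and 40.5 CPM in shNC. The log2 fold change was -0.09 ± 0.13 (SE), and the groups overlapped. ADAM17 (ENSG00000151694, chr2:9488486-9556732, minus strand) was at 45.1, 47.1 and 51.1 CPM in shPNISR, against 50.6, 54.8 and 46.4 CPM in shNC. Its log2 fold change was -0.08 ± 0.12 (SE); IAH1 overlaps it on the other strand. All 4 genes have fitted values within 0.10 of 0 on the log2 scale and a sign that turned in at least 1 alternative, so no direction is given for them. For each of EGFR, ERBB2, ERBB3 and ADAM17, shNC 2 was the highest control.

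ERRFI1, the receptor inhibitor, was higher in every shPNISR library than in any control but was not called (ENSG00000116285, chr1:8004404-8026308, minus strand). It had 1883, 2031 and 2358 reads in shPNISR, against 1077, 1685 and 834 reads in shNC. The levels were 112, 126 and 145 CPM in shPNISR, against 59.5, 109 and 55.5 CPM in shNC. Library shNC 2 lay just under the lowest shPNISR library, while shNC 1 and 3 were near each other and far below. The means were 127 ± 16.6 CPM in shPNISR and 74.7 ± 29.8 CPM in shNC (SD, n = 3 each), a log2 fold change of 0.77 ± 0.26 (SE), or 1.71-fold. The shPNISR mean was 1.17 times the level in shNC 2 and 2.21 times the mean of shNC 1 and 3. Leaving out shNC 2 gave a log2 fold change of 1.14, and ERRFI1 was then called. It was also called without the low-count filter, with limma voom, without the robust dispersion option and with a replicate block. In all, 5 of the 16 alternatives called it. The other 11 did not, among them DESeq2 and the GC and length correction. The antisense gene AL034417.4, with 101 reads over all 6 libraries, overlaps ERRFI1.

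**Figure D3:**
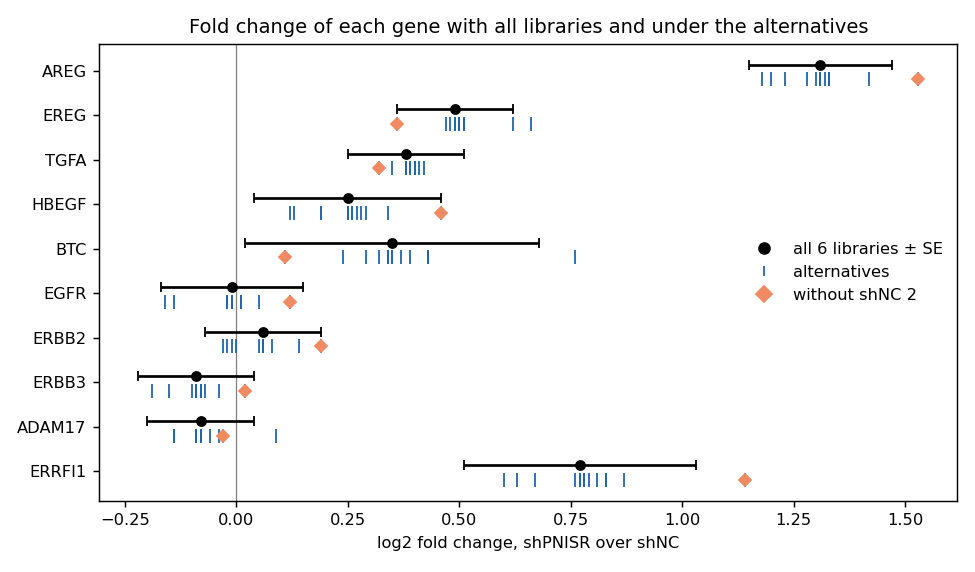
Log2 fold change (shPNISR over shNC) of each of the 10 genes with all libraries, under each of the 16 alternatives and without shNC 2. AREG stays between 1.18 and 1.53, ERRFI1 runs between 0.60 and 1.14, EREG between 0.36 and 0.66, and the receptors and ADAM17 lie on both sides of 0.

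Without shNC 2, AREG (1.53) and ERRFI1 (1.14) were called among the members, where 12.3% of the 16500 genes then tested were called in either direction. The same fit gave log2 fold changes of 0.36 for EREG, 0.32 for TGFA, 0.46 for HBEGF, 0.11 for BTC, 0.12 for EGFR, 0.19 for ERBB2, 0.02 for ERBB3 and -0.03 for ADAM17. Members differed in where shNC 2 lay. On the log2 scale it was above the other controls by 0.92 for ERRFI1, 0.60 for AREG, 0.56 for HBEGF, 0.38 for EGFR, 0.37 for ERBB2, 0.32 for ERBB3 and 0.17 for ADAM17. It was below them for BTC (-0.94), EREG (-0.43) and TGFA (-0.18).

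Ordered by level per exon length, the shPNISR means ran AREG 41.1, ERRFI1 30.4, EREG 15.4, ERBB2 11.7, TGFA 5.58, ERBB3 4.94, ADAM17 4.44, EGFR 3.57, HBEGF 2.31 and BTC 0.750 CPM per kb. In that order only the neighbours ERBB3 and ADAM17 overlapped in their libraries. In shNC the means ran ERRFI1 17.8, AREG 16.6, ERBB2 11.2, EREG 10.9, ERBB3 5.25, ADAM17 4.71, TGFA 4.28, EGFR 3.60, HBEGF 1.94 and BTC 0.592 CPM per kb. There the neighbours ERRFI1 and AREG, ERBB2 and EREG, ERBB3 and ADAM17, ADAM17 and TGFA, and TGFA and EGFR overlapped. AREG stood above ERRFI1 in the knockdown, and EREG and TGFA each stood above a receptor that they did not clear in the controls.

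This list and the pathway lists below were chosen with earlier results of these data known. The p-values printed for their genes are therefore a description and no fresh test. The remaining ligands and ERBB4 were read as a list of 7 genes, 4 of them tested. Of these, 1 was called higher and 0 lower, where 2.30% of all genes tested were called higher and 0.832% lower. The median log2 fold change of the list was 0.28. The called gene was EGF, the founding ligand of the family. It was at 13.4, 12.4 and 15.6 CPM in shPNISR, against 6.79, 8.16 and 7.13 CPM in shNC. The groups lay well apart, and shNC 2 was close to the other controls. EGF's log2 fold change was 0.91 ± 0.17 (SE, adjusted p = 0.00594 by edgeR's quasi-likelihood test with Benjamini-Hochberg adjustment). It kept its call in 15 of the 16 alternatives, with log2 fold changes of 0.81 to 0.99; without shPNISR 3 the adjusted p was 0.05. ERBB4, the other neuregulin receptor, averaged 1.16 ± 0.393 CPM in shPNISR and 1.71 ± 0.293 CPM in shNC (SD, n = 3 each) and was not called. EPGN (epigen), which lies on the far side of EREG from AREG, had 1 read in all 6 libraries, and NRG3 had none.

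Of 12 shedding genes 11 were tested and 0 were called by edgeR's quasi-likelihood test, by DESeq2 or by limma voom; 2 had an unadjusted p under 0.05, a share close to the 17.8% of all genes, and the median log2 fold change was 0.08. The most abundant of the list were ADAM15 and NRDC. ADAM15, a membrane metalloprotease, was at 184, 168 and 149 CPM in shPNISR, against 136, 140 and 136 CPM in shNC. NRDC (nardilysin), a metalloprotease that promotes cutting of HBEGF by ADAM17, was at 143, 146 and 145 CPM in shPNISR, against 165, 171 and 163 CPM in shNC. Neither passed, with log2 fold changes of 0.28 ± 0.11 for ADAM15 and -0.20 ± 0.10 for NRDC (SE; adjusted p = 0.176 and 0.320 by edgeR's quasi-likelihood test). ADAM10 had a log2 fold change of 0.09 ± 0.12 (SE). Without shNC 2, 1 gene of the list was called higher, as were 7.78% of all genes: RHBDF2, which encodes iRhom2, a partner that brings ADAM17 to the cell surface. With all libraries its log2 fold change was 0.37 ± 0.12 (SE).

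Receptor attenuation was read over 25 genes, all tested, for ubiquitin ligases, deubiquitinases, endocytic adaptors, phosphatases, sorting factors and other regulators. Of these, 0 were called higher and 1 lower, where 2.30% of all genes tested were called higher and 0.832% lower. The median log2 fold change of the list was -0.07. The gene that fell was STAMBP, a deubiquitinase of endosomes. As the list holds both ubiquitin ligases and deubiquitinases, its fall is not read as weaker attenuation. It was at 58.6, 53.3 and 54.1 CPM in shPNISR, against 78.6, 83.9 and 75.5 CPM in shNC. The groups did not overlap, and the log2 fold change was -0.52 ± 0.11 (SE, adjusted p = 0.0141 by edgeR's quasi-likelihood test with Benjamini-Hochberg adjustment). Its call was lost without shPNISR 1, 2 or 3 and without shNC 1, at log2 fold changes of -0.55 to -0.50. Without shNC 2 the list had 2 genes higher (CBLC and SH3KBP1) and 3 lower (SOCS4, PTPN2 and STAMBP), where 7.78% of all genes were higher and 4.52% lower.

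Of 28 adaptors and kinases 27 were tested and 0 were called by edgeR's quasi-likelihood test, by DESeq2 or by limma voom; 4 had an unadjusted p under 0.05, a share no higher than the 17.8% of all genes, and the median log2 fold change was -0.09. AKT1, a kinase of the PI3K arm, averaged 236 ± 9.66 CPM in shPNISR and 227 ± 4.54 CPM in shNC, and GRB2, the adaptor that couples receptors to SOS, 225 ± 6.73 CPM in shPNISR and 219 ± 10.5 CPM in shNC (SD, n = 3 each). Both had log2 fold changes within their error of 0, at 0.05 ± 0.10 for AKT1 and 0.04 ± 0.10 for GRB2 (SE). Without shNC 2, GAB2 was called higher and SOS1 and NRAS lower, with 7.78% of all genes higher and 4.52% lower.

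Of 21 genes known to be induced by ERK signalling, all tested, 2 were called higher and 0 lower. Of all genes tested, 2.30% were called higher and 0.832% lower. The list's median log2 fold change was 0.29, against -0.01 over all genes tested, and 17 fitted values were above 0. The list was chosen with earlier results of these data known, so nothing is read from these differences. ETV4, an ETS transcription factor, was at 65.0, 63.2 and 53.7 CPM in shPNISR, against 34.0, 39.9 and 36.6 CPM in shNC. The groups lay apart, the log2 fold change was 0.72 ± 0.12 (SE, adjusted p = 0.00301 by edgeR's quasi-likelihood test with Benjamini-Hochberg adjustment), and the call held in all 16 alternatives. SPRY4, a feedback inhibitor of the RAS-ERK pathway, was at 18.2, 16.6 and 19.9 CPM in shPNISR, against 12.5, 12.4 and 12.0 CPM in shNC. Its log2 fold change was 0.57 ± 0.15 (SE, adjusted p = 0.0445 by the same test). The call of SPRY4 was lost in 7 of the 16 alternatives, among them leaving out any library other than shNC 2, with log2 fold changes of 0.50 to 0.63.

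Without shNC 2, where 7.78% of all genes were called higher and 4.52% lower, 10 of the 21 were called higher and 0 lower: DUSP4, DUSP5, DUSP6, SPRY4, SPRED3, ETV4, ETV5, EGR1, FOS and IER3. DUSP5 and EGR1 show how that library differed, and were picked after their values were seen. DUSP5, a phosphatase of ERK, was at 45.8, 60.3 and 60.5 CPM in shPNISR, against 17.8, 54.1 and 19.8 CPM in shNC. EGR1, an immediate early transcription factor, was at 68.9, 76.0 and 86.4 CPM in shPNISR, against 37.2, 95.7 and 41.0 CPM in shNC. In both genes shNC 2 lay within or above the range of the knockdown libraries and the other controls lay below all of them. Leaving out a control picked from these values favours calls in genes where it lies near shPNISR, so nothing is read from the 10 calls. What sets shNC 2 apart was not tested.

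**Figure D4:**
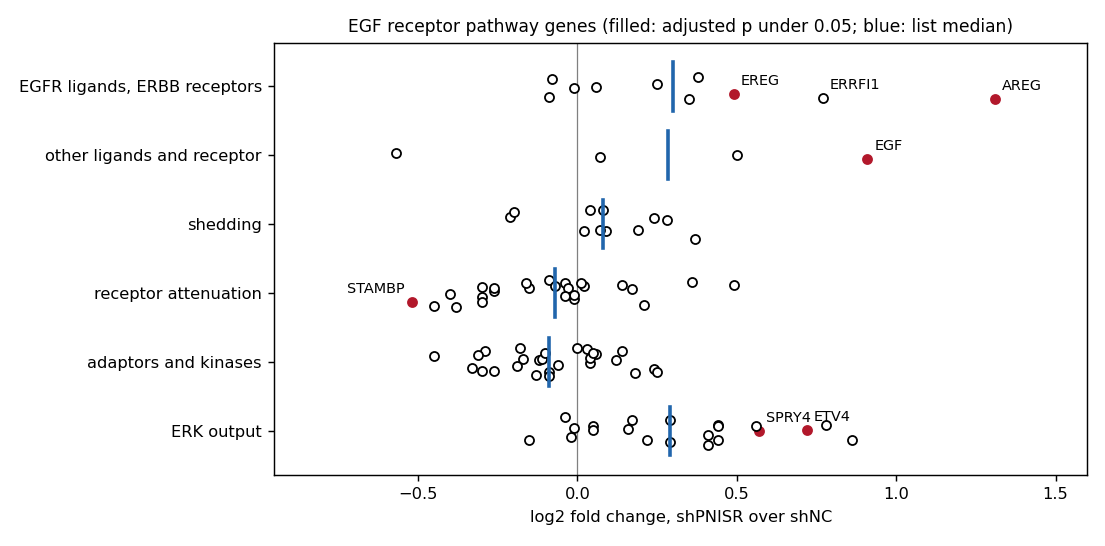
Log2 fold change (shPNISR over shNC) of every tested gene of the 10 members and of the 5 other pathway lists, 1 row per list, with filled points for genes called at an adjusted p under 0.05 and a blue mark at the list's median. The medians lie between -0.09 for adaptors and kinases and 0.30 for the members, against -0.01 for all genes tested.

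AREG, EREG, EPGN and BTC lie in 1 stretch of chromosome 4 beside a cluster of chemokine genes. Of 40 other genes that start within 1 Mb of the start of AREG, 12 were tested. In the edgeR fit 1 was called higher (EREG) and 0 lower, where 2.30% of all genes tested were called higher and 0.832% lower. EREG and BTC are members picked with these results known, so nothing is read from that difference. At an unadjusted p under 0.05 there were 1 higher and 5 lower (9.98% and 7.79% of all genes tested), DESeq2 called 1 higher and 0 lower, and limma voom called 1 higher and 3 lower. The tested genes include 5 chemokine genes whose products draw neutrophils: CXCL8, CXCL1, CXCL5, CXCL3 and CXCL2. They start at -705, -576, -446, -406 and -346 kb from the start of AREG and had fitted values below 0. Their log2 fold changes were -0.98 ± 0.29 for CXCL8, -1.39 ± 0.48 for CXCL1, -0.46 ± 0.19 for CXCL5, -1.26 ± 0.46 for CXCL3 and -1.35 ± 0.53 for CXCL2 (SE), with adjusted p between 0.132 and 0.281 by edgeR's quasi-likelihood test. PF4, another tested chemokine gene of the cluster, had a log2 fold change of -0.15 ± 0.49 (SE), within its error of 0.

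The chemokine values also depended on shNC 2. CXCL1 was at 19.1, 19.3 and 11.7 CPM in shPNISR, against 53.3, 20.1 and 57.3 CPM in shNC. CXCL8 was at 27.8, 31.1 and 21.5 CPM in shPNISR, against 61.9, 30.7 and 65.9 CPM in shNC. In both genes shNC 2 was at the level of the knockdown libraries. Without shNC 2 all 5 were called lower, as were 4.52% of all genes, with log2 fold changes of -1.26 for CXCL8, -1.73 for CXCL1, -0.69 for CXCL5, -1.57 for CXCL3 and -1.74 for CXCL2. Leaving out shNC 2 favours such calls here too, and nothing is read from them. EREG, at -80.0 kb, was not called without shNC 2. The other tested genes of the stretch had log2 fold changes of 0.23 for RASSF6, -0.15 for PF4, -0.17 for MTHFD2L, 0.35 for BTC, -0.08 for PARM1 and -0.17 for LINC02562, none of them called.

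**Figure D5:**
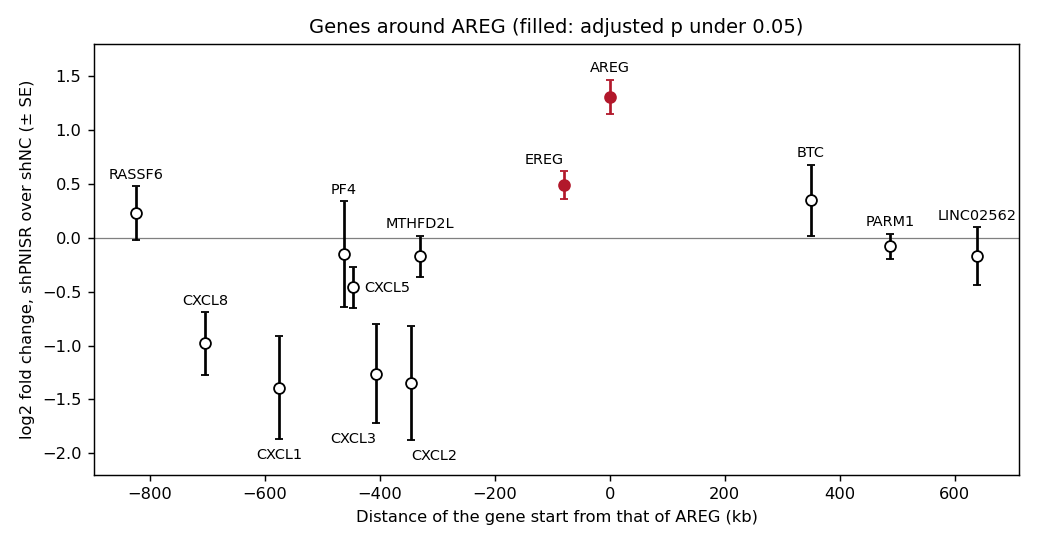
Log2 fold change (shPNISR over shNC, ± SE) of the 13 tested genes within 1 Mb of the AREG start, by distance in kb, with filled points for genes called at an adjusted p under 0.05. AREG and EREG are the called genes, and CXCL8, CXCL1, CXCL5, CXCL3 and CXCL2 lie below 0 to the left.

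The genes whose pattern was most like that of AREG were ranked by Pearson's correlation of log2 CPM over the 6 libraries among 11589 genes with a mean of at least 5 CPM. Among the closest were METRN (0.995), PLAU (0.994), RIOK3 (0.994) and EGFL7 (0.991), and the most opposite MLLT1 (-0.998), KBTBD7 (-0.998) and PCSK7 (-0.993). The correlation pools both groups, which share their contrast with the ranking, and a correlation over 6 libraries picked from that many genes is a description only. PLAU, the urokinase plasminogen activator, had a log2 fold change of 0.93 ± 0.17, EGFL7, a secreted protein with EGF-like domains that is no ERBB ligand, 0.99 ± 0.15, and RIOK3, an atypical kinase, 0.67 ± 0.13 (SE), and these 3 were called higher. METRN (0.46), MLLT1 (-0.20), KBTBD7 (-0.51) and PCSK7 (-0.36) were not called.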

How the data were processed

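The authors deposited whole-number read counts per Ensembl gene for the 6 libraries; per the submitters' processing notes, HISAT2 2.0.4 and the genome build GRCh38 were used. No source used here gives the counter, the annotation release or the use of strand, and reads of overlapping genes cannot be separated. Totals ran between 15049485 and 17977803 reads. A chi-square comparison found counts of any 2 libraries of a group to differ beyond sampling noise, and none was treated as a copy.

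Counts were tested with edgeR 4.0.16 in R 4.3.3 (filterByExpr with a minimum count of 10 and a minimum total of 15, TMM factors, robust quasi-likelihood fit on all 6 libraries, 2 groups and no covariate), with Benjamini-Hochberg adjustment over 16102 genes and a threshold of 0.05; the standard error is the log2 fold change divided by the square root of F. Positions and exon lengths are from GENCODE 29, and promoters from RefSeq. The members and gene lists were chosen with earlier results of these data known. The genes named were the members, PNISR, up to 6 called genes of each pathway list (or the 2 most abundant where none was called), genes within 1 Mb of AREG, and the 5 most and 3 least like AREG, of which 1 is not reported here; others were chosen after their values were seen. The code was tested on simulated data. Alternatives were DESeq2 1.42.0, limma 3.58.1 voom, other scalings and filters, a GC and length correction, a replicate block, and leaving out each library.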

Additional observations from a re-analysis of the deposited data

How the results depend on the processing

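Over 16 alternatives, AREG, ETV4 and PNISR kept their calls and directions in all. The 371 genes higher became 642 without the low-count filter and 133 to 1284 when 1 library was left out. The 134 lower became 71 with library totals, 354 without the low-count filter, 229 with DESeq2 and 30 to 746 when 1 library was left out; the highest counts came without shNC 2. Over the 5 pathway lists, the 3 genes higher became 6 without the low-count filter and 1 to 15 when 1 library was left out, and the 1 lower became 3 without the filter, 2 with the GC and length correction and 0 to 5 when 1 library was left out. Signs turned for EGFR (0.01 with upper-quartile factors, 0.05 with the GC and length correction, -0.16 to 0.12 when 1 library was left out), ERBB2 (-0.02 with the GC and length correction, -0.03 to 0.19), ERBB3 (-0.19 to 0.02) and ADAM17 (0.09 with the GC and length correction). The cause was not tested.

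For libraries with the same replicate number, deviations from the group means had correlations of 0.12, -0.081 and -0.15. With 3 libraries a group these values cannot decide whether the numbers pair the libraries, and the labels do not say. With a replicate block, 390 genes were higher and 118 lower, the lists held 2 higher and 1 lower, ERRFI1 (0.83) was called, SPRY4 (0.57) was not, and the other members, PNISR, EGF, STAMBP and ETV4 kept their side of the threshold. Low depth limits BTC, at 16 to 38 reads a library. With 3 libraries a group and 1 control apart, a gene that was not called is not shown to be unchanged.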
